A study of Oryctolagus cuniculus with 9 samples.

Results

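The comparison of the S9 with the S6 libraries covers 6 of the 9 urethral libraries of the series, S9_1, S9_2 and S9_4 against S6_2, S6_3 and S6_4. The libraries were assigned by the code that opens their titles, and every gene row was used. The series belongs to work on a layered hydrogel stent placed for repair of the rabbit urethra, and its stated question is by what mechanism the stent helps the urethra to heal. Tissue was labelled urethral, and polyadenylated RNA was sequenced. The sources used here do not give the treatment, time after surgery, strain, age or animal behind each code, so S6 is not taken as a control and S9 is not taken as a treated or intact group. The third code, S7, also with 3 libraries, shared the estimate of spread and is given only for placement.

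The urethral wall holds a stratified or urothelial lining, a vascular connective tissue layer and a muscle coat. After injury an epithelial barrier commonly switches on an acute-phase and oxidant defence program, driven by cytokines that act through NF-kappaB, STAT3 and the C/EBP factors. Connective tissue identity is held by transcription factors such as TCF21, FOXF1 and the TBX family, and the relaxation of the muscle coat is set by nitric oxide, natriuretic peptides and cyclic GMP. Lists of leukocyte and smooth muscle markers were used here as markers only, and the account concerns genes outside those lists. Several of the genes described are nevertheless expressed in leukocytes or muscle.

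Counts per library lay between 35127085 and 36832773. In S6_4, S7_3 and S9_4, 1 library of each group, mitochondrially encoded genes took 0.243% to 0.419% of counts, against 0.910% to 1.52% elsewhere. Levels are TMM-scaled CPM (read counts scaled to a common library size), in the order S6_2, S6_3, S6_4 and S9_1, S9_2, S9_4. A gene was called when its adjusted p in edgeR's quasi-likelihood test was below 0.05. Among 17102 genes tested 12.4% were called, 6.02% higher and 6.34% lower in S9, and in 35.5% the S9 libraries did not overlap the S6 libraries. Of the 2115 called genes 2099 had groups that did not overlap, so that trait does not set one called gene apart from another. The median log2 fold change over all genes tested was -0.011. Calls rested on few libraries: with S9_1 left out no gene was called by edgeR (3994 had an unadjusted p below 0.05, and DESeq2 on all 9 libraries called 4112), 4 without S9_2 and 89 without S6_4. The number was 1025 without S6_3 and 1197 without S7_4, and 7 genes were called in the 6 libraries (2 of each group) with high mitochondrial counts. Among genes called higher, S9_4 was the lowest S9 library in 748 of 1030, and among genes called lower, S6_3 was the highest S6 library in 612 of 1085. Whether libraries came from separate animals is not stated, so p-values measure the spread between these libraries.

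Cell type markers moved with the groups, and epithelial, connective tissue and muscle markers of a urethral wall were present in all 9 libraries. Summed CPM of 10 neutrophil markers was 8340 to 15801 in S6 and 437 to 760.3 in S9, with all 7 tested called lower and MMP8 at 0 counts in every library. Of 10 macrophage markers 4 were called lower (660.3 to 1671 against 282 to 483 CPM), and of 12 T and B cell markers 7 (132 to 311 against 41.9 to 59.5 CPM). Of 11 smooth muscle markers 8 were called higher (2165 to 3831 against 7049 to 13434 CPM). Schwann and neural markers summed to 50.6 to 188 CPM in S6 and 238 to 330.3 CPM in S9, with 3 of 8 tested called higher. Of 4 tested skeletal muscle markers DES and NEB were called higher and MYH1 was at 0, and the sum (151 to 293 against 564 to 1023 CPM) was almost all DES, which is also a smooth muscle marker. Glandular markers summed to 204 to 528 against 64.4 to 123 CPM, with TFF1, TFF2 and AGR2 of 7 tested called lower, SCGB3A1 called higher and MUC2 at 0. Sums overlapped between the groups for fibroblast (28622 to 46193 against 40657 to 53870 CPM, 2 of 11 called higher), urothelial (493 to 1614 against 381 to 707 CPM, none of 9 called), stratified epithelial (2691 to 3669 against 2478 to 5417 CPM, 1 of 9 called higher) and endothelial markers (1371 to 1638 against 1248 to 2787 CPM, 3 of 11 called higher). They also overlapped for adipocyte (316 to 384 against 160.5 to 347 CPM, 1 of 5 called higher and 2 lower) and erythroid markers (217 to 613 against 457 to 663 CPM, none of 3 called). All 11 endothelial markers had a positive log2 fold change (median 0.82), and VWF was the largest part of their sum. Over all genes tested 12.4% were called. In whole tissue, fewer cells of a type and less RNA per cell cannot be told apart.

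**Figure D1:**
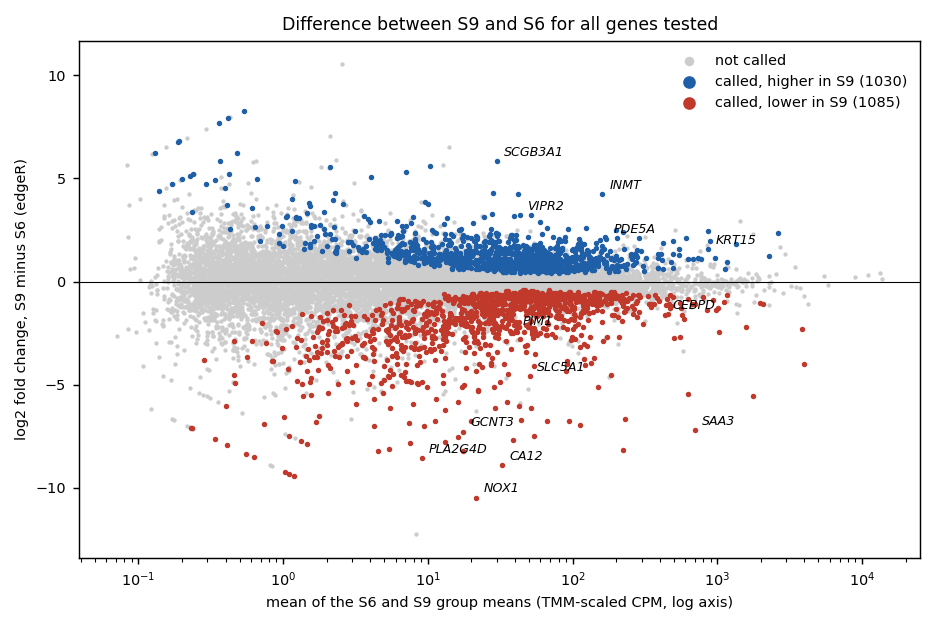
Log2 fold change (S9 minus S6, vertical axis) against the mean level of the groups in CPM (horizontal log axis) for 17102 genes. The 1030 genes called higher in S9 are blue, the 1085 called lower are red, and labelled genes are described in the text. Among genes above 10 CPM the lower calls reach further from 0 than the higher calls, down to NOX1.

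The lowest adjusted p-values belonged to 14 genes with an edgeR adjusted p below 0.01, of which 11 were lower and 3 higher in S9. Among the lower genes were SAA3, the transcription factors CEBPB and CEBPD and the kinase PIM1. Their groups did not overlap, as in nearly all called genes. SAA3, an acute-phase serum amyloid A protein made in inflamed epithelium, was at 898, 1490.4 and 1767 CPM in S6 and 12.04, 10.7 and 5.43 CPM in S9 (log2 fold change -7.21, SE 0.64, edgeR adjusted p = 0.00881). The groups lay far apart, and the S7 libraries, at 27.4, 107 and 55.6 CPM, fell between them. CEBPD, a C/EBP factor induced in the acute phase, was at 771, 583 and 613 CPM in S6 and 205, 213 and 228 CPM in S9 (log2 fold change -1.60, SE 0.15, edgeR adjusted p = 0.00881). The related CEBPB was at 182, 164 and 163 CPM in S6 and 61.6, 66.1 and 65.8 CPM in S9 (log2 fold change -1.40, SE 0.14). For both factors the S7 means, 279.9 and 88.6 CPM, were nearer to S9 than to S6.

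PIM1, a serine/threonine kinase induced through STAT factors, was at 71.8, 65.9 and 65.8 CPM in S6 and 12.9, 15.7 and 10.9 CPM in S9 (log2 fold change -2.36, SE 0.21, edgeR adjusted p = 0.00881). SBNO2, a transcriptional coregulator, was at 154, 179.6 and 158 CPM in S6 and 66.03, 80.03 and 69.9 CPM in S9 (log2 fold change -1.19, SE 0.13). IFNGR1, the ligand-binding chain of the interferon-gamma receptor, was at 202, 183 and 214 CPM in S6 and 89.6, 89.1 and 95.2 CPM in S9 (log2 fold change -1.13, SE 0.12). For IFNGR1 the S7 libraries, at 85.6, 96.6 and 99.96 CPM, overlapped those of S9, while for PIM1 and SBNO2 they lay closer to S9 than to S6. CHI3L2, a chitinase-like protein, was at 20.6, 22.4 and 34.2 CPM in S6 and 0.265, 0.246 and 0.503 CPM in S9 (log2 fold change -6.24, SE 0.66). FPR1, a receptor of phagocytes for bacterial formyl peptides, was at 7.21, 13.4 and 7.77 CPM in S6 and 0.397, 0.520 and 0.741 CPM in S9 (log2 fold change -4.09, SE 0.43). The remaining lower genes were CYBA and PLA2G4D, described with the oxidases and eicosanoids, and the leukocyte marker S100A12. Neutrophil and macrophage markers were lower beside these genes, with the sums given above, and their part in the result was not tested.

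The 3 higher genes were TPPP, NUMBL and PFN2. TPPP, a microtubule-binding protein, was at 13.3, 8.51 and 11.02 CPM in S6 and 43.1, 49.8 and 38.9 CPM in S9 (log2 fold change 2.0, SE 0.22, edgeR adjusted p = 0.00941). The S7 libraries were at least as high as most of S9, at 68.1, 45.8 and 57.1 CPM. NUMBL, an adaptor related to the Notch inhibitor NUMB, was at 19.9, 21.8 and 19.8 CPM in S6 and 60.9, 52.8 and 45.4 CPM in S9 (log2 fold change 1.37, SE 0.15). PFN2, an actin-binding profilin, was at 36.9, 29.1 and 31.98 CPM in S6 and 81.8, 79.2 and 75.3 CPM in S9 (log2 fold change 1.27, SE 0.14). For all 3 the lowest S9 library was above the highest S6 library, and groups were apart in nearly all called genes. With S9_1 left out, the edgeR adjusted p of the 13 genes other than S100A12 lay between 0.0554 (CYBA) and 0.0698.

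**Figure D2:**
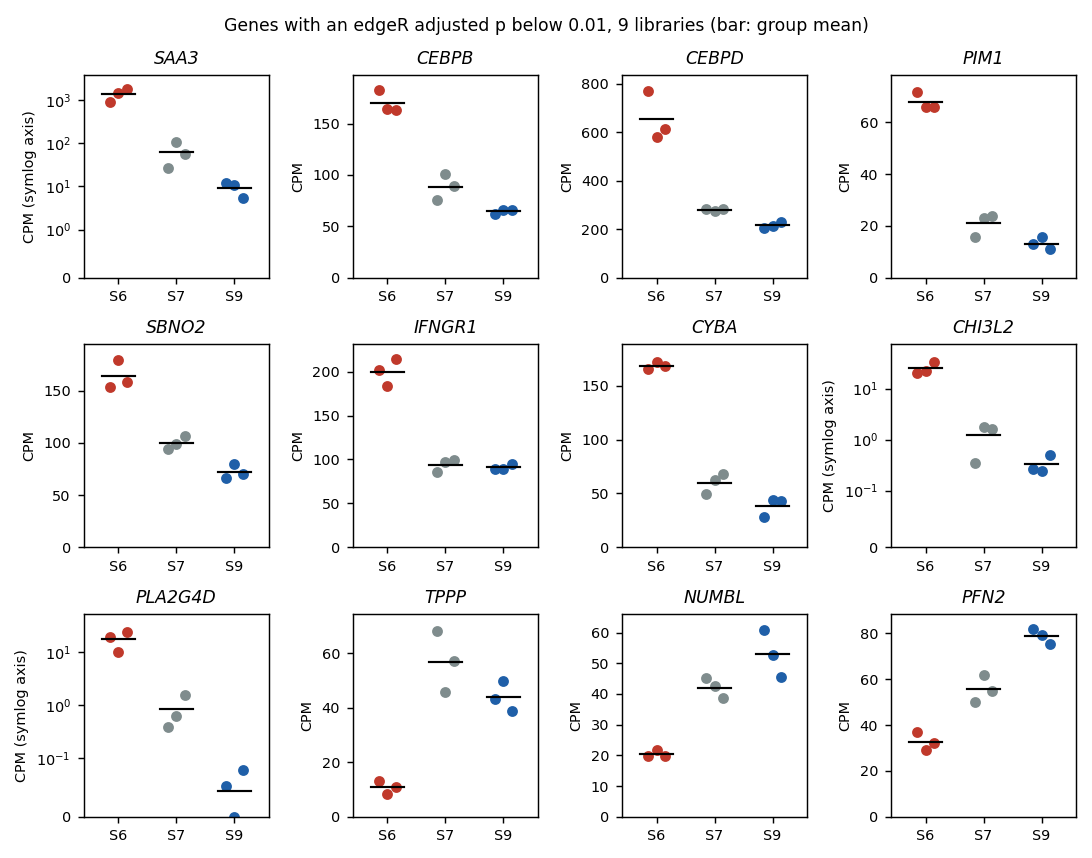
CPM in each of the 9 libraries (points, grouped as S6, S7 and S9) for 12 genes with an edgeR adjusted p below 0.01. Bars are group means, and SAA3, CHI3L2 and PLA2G4D have a symmetric log axis. S9 lies below S6 in the first 9 panels and above it in TPPP, NUMBL and PFN2.

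Of 21 tested iron and metal handling genes, 5 were called lower and 1 higher (28.6% called, against 12.4% of all genes), and their median log2 fold change was -0.86. Haptoglobin (HP), which binds free haemoglobin, was at 47.7, 125 and 79.3 CPM in S6 and 0.635, 1.42 and 1.83 CPM in S9 (log2 fold change -6.02, SE 1.01, edgeR adjusted p = 0.019). STEAP4, a metalloreductase, was at 402, 276 and 269 CPM in S6 and 51.4, 112 and 124 CPM in S9 (log2 fold change -1.72, SE 0.33). The groups of both did not overlap, as in nearly all called genes, and HP differed by far the more. The transferrin receptor TFRC was at 47.05, 57.98 and 37.7 CPM in S6 and 17.6, 16.8 and 20.9 CPM in S9 (log2 fold change -1.37, SE 0.23). Ceruloplasmin (CP), a copper ferroxidase, was at 290.2, 77.4 and 492 CPM in S6 and 32.9, 64.9 and 20.3 CPM in S9, so that S6_3 lay close to the highest S9 library. The iron exporter SLC40A1 was the other lower call. SLC39A14, an importer of zinc and non-transferrin iron, was higher, at 14.4, 16.2 and 12.6 CPM in S6 and 32.05, 42.3 and 26.6 CPM in S9 (log2 fold change 1.23, SE 0.21).

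Mucosal antimicrobial and secretory genes had 6 of 17 tested members called lower (35.3%, against 12.4% of all genes called), none higher, and a median of -1.47. DMBT1, a secreted pattern-binding glycoprotein, was at 73.5, 18.7 and 61.8 CPM in S6 and 3.84, 4.27 and 1.96 CPM in S9 (log2 fold change -3.93, SE 0.74). AGR2, a disulfide isomerase of secretory epithelium, was at 39.5, 45.6 and 77.3 CPM in S6 and 12.1, 25.5 and 21.1 CPM in S9. The chitinase CHIT1 was at 10.6, 66.8 and 21.2 CPM in S6 and 3.81, 3.75 and 1.56 CPM in S9 (log2 fold change -3.43, SE 0.78). CHIT1 and the ribonuclease RNASE6 were highest in S6_3, while DMBT1 was lowest there, so members of the list did not follow each other within S6. The serum amyloid A row that RefSeq lists with the synonyms SAA1 and SAA2 was at 32.4, 4.45 and 80.8 CPM in S6 and 0.106, 0.137 and 0.847 CPM in S9. Limma-voom did not call that row. Reads of near-identical amyloid genes can be split between copies, so the level of each is uncertain.

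Oxidant-producing enzymes formed the list with the lowest median, -2.42. NADPH oxidases and dual oxidases move electrons across membranes to make superoxide or hydrogen peroxide, and each catalytic subunit needs partner proteins. All 16 tested members had a negative log2 fold change and 8 were called lower, a share of 50.0% against 12.4% of all genes. The list was chosen with earlier results of these data known, so this share is a description and not a test. Neutrophil and macrophage markers were lower beside the oxidase genes (7 of 7 and 4 of 10 tested called lower, with the sums given above), and their part was not tested. NOX1, a catalytic subunit best known from colon epithelium, was at 32.1, 13.3 and 84.4 CPM in S6 and 0.0265, 0.0548 and 0 CPM in S9. It had 4770 counts over the S6 libraries and 3 over those of S9, 1662 times as many for the library sizes (exact 95% interval for counting error 568 to 8059.9). Every S9 library lay far below every S6 library, and in S7 NOX1 was at 0.0273, 4.03 and 4.90 CPM.

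The other calls were partner proteins and phagocyte subunits. NOXA1, the activator of NOX1, was at 196, 108 and 213 CPM in S6 and 16.9, 21.4 and 41.4 CPM in S9 (log2 fold change -2.70, SE 0.45, edgeR adjusted p = 0.019). CYBA, the p22phox subunit shared by several oxidases, was at 166, 173 and 168 CPM in S6 and 28.2, 43.7 and 42.6 CPM in S9 (log2 fold change -2.14, SE 0.20, edgeR adjusted p = 0.00881). CYBA was the tightest of these genes within S6. DUOXA2, the maturation factor of the dual oxidase DUOX2, was at 58.5, 10.1 and 254 CPM in S6 and 0.0265, 0.137 and 1.64 CPM in S9. Its S6 libraries differed more than 20-fold. RAC2, a GTPase of blood cells, was at 135, 258 and 291 CPM in S6 and 25.5, 43.8 and 35.8 CPM in S9 (log2 fold change -2.70, SE 0.45). The phagocyte subunits CYBB, NCF1 and NCF4 were the other calls, and CYBB was at 27.9, 192 and 56.97 CPM in S6, with S6_3 far above the rest. NOX1 and DUOXA2 were not called by limma-voom.

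Acid-base and nutrient transport genes were lower where called. The sums of stratified and urothelial markers overlapped between the groups. ELF3, most of the urothelial sum, was at 1310, 399 and 848 CPM in S6 and 230, 292 and 447 CPM in S9. Of 9 tested urothelial markers 6 had a negative and 3 a positive log2 fold change, none called. Neutrophil and macrophage markers were lower in S9 as well, and the part of any cell type in these genes was not tested. CA12, a membrane carbonic anhydrase, was at 41.1, 28.5 and 126 CPM in S6 and 0.0529, 0 and 0.344 CPM in S9 (log2 fold change -8.90, SE 1.55, edgeR adjusted p = 0.0196). Limma-voom did not call CA12. CA4, another membrane carbonic anhydrase, was at 1.95, 4.54 and 2.63 CPM in S6 and 0, 0.192 and 0 CPM in S9. They were the calls among 21 tested carbonic anhydrases and acid-base transporters (9.52%, against 12.4% of all genes called), whose median was -0.41. SLC5A1, the sodium-glucose cotransporter SGLT1, was at 156, 46.4 and 89.4 CPM in S6 and 2.06, 4.66 and 5.37 CPM in S9 (log2 fold change -4.59, SE 0.51, edgeR adjusted p = 0.0105). In S7 it was at 49.9, 43.9 and 42.3 CPM, close to the lowest S6 library. SLC16A3, the lactate exporter MCT4, was at 58.6, 51.3 and 73.3 CPM in S6 and 1.24, 1.59 and 3.41 CPM in S9 (log2 fold change -4.87, SE 0.71). SLC6A14, an amino acid transporter of mucosal epithelia, was at 65.2, 9.08 and 49.5 CPM in S6 and 2.62, 4.66 and 6.04 CPM in S9. With SLC7A5 and SLC7A7, 5 of 25 nutrient transporters were called lower (20%, against 12.4% of all genes called) and none higher. The list median of -0.19 lay near that of all genes.

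Enzymes that build mucosal glycans had 8 of 30 tested members called lower (26.7%, against 12.4% of all genes called), none higher, and a median of -0.82. GCNT3, a branching enzyme of mucin glycans, was at 47.3, 11.9 and 45.2 CPM in S6 and 0.0529, 0.0822 and 0.529 CPM in S9 (log2 fold change -7.27, SE 1.12, edgeR adjusted p = 0.0164). B3GNT5, which starts lacto-series glycolipids, was at 37.5, 44.1 and 34.6 CPM in S6 and 16.9, 12.8 and 14.8 CPM in S9 (log2 fold change -1.38, SE 0.23). GCNT3 was below 1 CPM in every S9 library, while no S9 library was below 12 CPM for B3GNT5. C1GALT1, which makes the core 1 structure, was at 25.001, 16.4 and 26.2 CPM in S6 and 9.98, 11.3 and 9.32 CPM in S9. GALNT12, which adds the first sugar, was at 83.8, 153 and 144 CPM in S6 and 44.1, 46.2 and 63.2 CPM in S9. GALNT3, GALNT6, ST6GALNAC2 and FUT7, which makes selectin ligands on leukocytes, were the other calls.

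Secreted and surface proteins of mucosa were among the genes with the largest fold changes. The trefoil peptide TFF2, a mucosal repair factor, was at 238, 62.5 and 259 CPM in S6 and 0.503, 1.83 and 2.78 CPM in S9 (log2 fold change -6.77, SE 1.17). TFF1, the related peptide, was at 43.01, 81.05 and 106 CPM in S6 and 0.291, 0.603 and 0.238 CPM in S9. Both were low in all S9 libraries, and TFF2 in S7 was at 8.59, 67.8 and 142 CPM. PSCA, a surface antigen of urothelium, was at 130.4, 249.9 and 17.4 CPM in S6 and 0.847, 2.05 and 0.794 CPM in S9. TSPAN1, a tetraspanin of secretory epithelia, was at 1545, 904 and 1778 CPM in S6 and 422, 478 and 749 CPM in S9 (log2 fold change -1.36, SE 0.32). The epithelial cytokine IL17C had 1000 counts over the S6 libraries and 3 over those of S9, 348 times as many for the library sizes (exact 95% interval for counting error 119 to 1692). The glandular markers were lower in sum, mainly through TFF1 and TFF2 themselves, while SCGB3A1 of the same list was called higher and TFF3 (log2 fold change 0.09) and SPDEF (log2 fold change -0.15) were not called. Their part in these results was not tested.

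**Figure D3:**
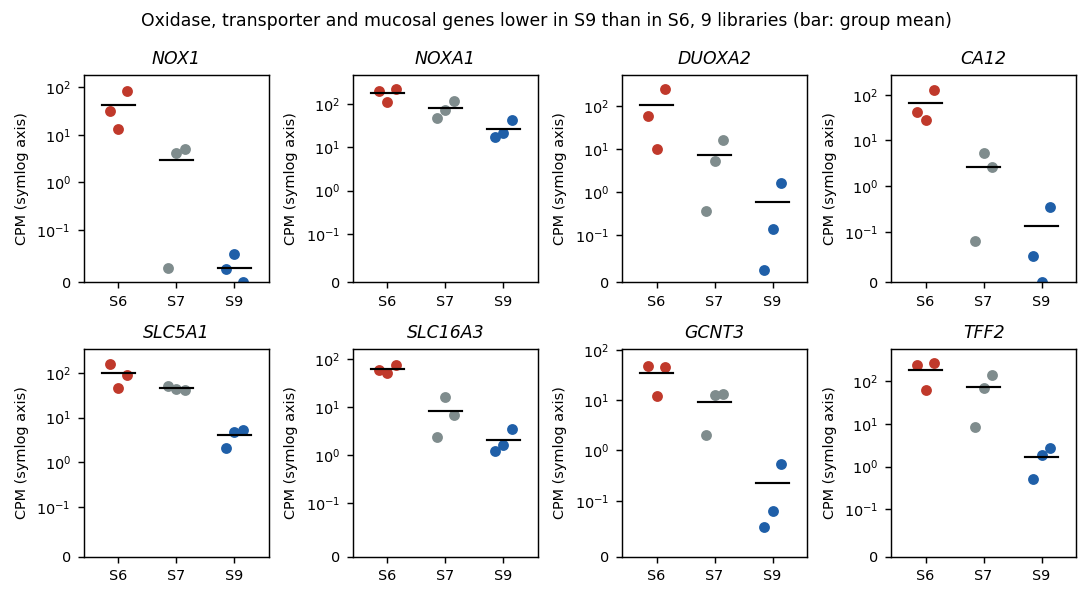
CPM in each of the 9 libraries on a symmetric log axis for 8 oxidase, transporter and mucosal genes, with bars for group means. The S9 points lie below the S6 points in every panel, and S7_2 is the lowest S7 point in all but SLC5A1.

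Eicosanoid genes were called in both directions. Phospholipase A2 enzymes release arachidonic acid, which cyclooxygenases and terminal synthases turn into prostaglandins, prostacyclin and thromboxane. PLA2G4D, a cytosolic phospholipase A2 of stressed epithelium, was at 19.6, 10.1 and 24.7 CPM in S6 and 0.0529, 0 and 0.0794 CPM in S9 (log2 fold change -8.57, SE 0.91, edgeR adjusted p = 0.00941). The related PLA2G4F was at 148, 53.6 and 124 CPM in S6 and 22.2, 20.8 and 34.7 CPM in S9 (log2 fold change -2.07, SE 0.48). Thromboxane synthase TBXAS1 was the other lower call. Prostacyclin synthase PTGIS was higher in S9, at 29.3, 21.6 and 30.1 CPM in S6 and 109, 160.2 and 89.9 CPM in S9 (log2 fold change 2.15, SE 0.48, edgeR adjusted p = 0.029). HPGD, which breaks prostaglandins down, was also higher, at 3.98, 3.97 and 3.35 CPM in S6 and 10.9, 11.3 and 5.82 CPM in S9. Over 33 tested genes 3 were called lower and 2 higher (15.2% called, against 12.4% of all genes). Their median of -0.19 was positive under length correction alone. Smooth muscle markers were higher in S9, and all 11 endothelial markers had a positive log2 fold change. The part of any cell type in these genes was not tested.

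Pyroptosis is a lytic cell death set off by inflammatory caspases. CASP1, its protease, was at 19.99, 15.96 and 10.4 CPM in S6 and 1.11, 1.48 and 2.25 CPM in S9 (log2 fold change -3.26, SE 0.39), and the pore protein GSDMD was at 24.9, 97.2 and 33.5 CPM in S6 and 6.56, 10.3 and 14.003 CPM in S9. With the cytokine IL1A, 3 of 9 tested members were called lower (33.3%, against 12.4% of all genes called), none higher, and the median was -0.81. The part of the lower leukocyte markers in these calls was not tested.

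Of 23 tested genes of arginine, polyamine, tryptophan and NAD metabolism, 7 were called lower (30.4%, against 12.4% of all genes called), none higher, and the median was -0.61. ACOD1, which makes itaconate in activated macrophages, was at 30.99, 200.1 and 72.03 CPM in S6 and 0.635, 2.52 and 1.16 CPM in S9 (log2 fold change -6.13, SE 0.98, edgeR adjusted p = 0.0167). ARG1 and NOS2, which compete for arginine, were both called, with ARG1 at 8.26, 143 and 14.96 CPM in S6 and 0.291, 3.51 and 1.06 CPM in S9. In ACOD1 and ARG1 the S6_3 library stood well above the others. The polyamine catabolic enzyme SAT1 was at 993, 879 and 999 CPM in S6 and 324, 461 and 581 CPM in S9 (log2 fold change -1.07, SE 0.22). SMOX, another, was at 65.2, 45.4 and 66.1 CPM in S6 and 20.7, 24.3 and 29.3 CPM in S9 (log2 fold change -1.25, SE 0.23). KMO, of the kynurenine pathway, had 270 counts over the S6 libraries and 1 over those of S9, 282 times as many for the library sizes (exact 95% interval for counting error 50.2 to 11185). Most of its S6 counts came from S6_3, with KMO at 0.190, 6.63 and 1.18 CPM in S6, so the pooled ratio does not describe each library. IDO2 was the other call. Leukocyte markers were lower beside this list, and their part was not tested.

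Of 37 lysosome and vacuolar ATPase genes 16 were called lower and 1 higher (45.9% called, against 12.4% of all genes), and the median was -0.73. The groups did not overlap in 30 of the 37, against 35.5% of all genes. Cathepsin S (CTSS), a protease of antigen-presenting cells, was at 318, 529 and 435 CPM in S6 and 91.4, 132 and 169.8 CPM in S9 (log2 fold change -1.70, SE 0.27). The proton pump subunit ATP6V1A was at 124, 104 and 129 CPM in S6 and 57.4, 55.4 and 63.2 CPM in S9 (log2 fold change -1.02, SE 0.16). Progranulin (GRN) was lower too, and for all of these the groups were apart, as in nearly all called genes. Of the lysosomal cholesterol transporters, NPC2 was lower, at 417, 409 and 446 CPM in S6 and 128, 129 and 205 CPM in S9. NPC1 was the single member called higher, at 31.5, 22.01 and 27.2 CPM in S6 and 57.7, 51.02 and 47.4 CPM in S9 (log2 fold change 0.95, SE 0.19). What part the lower leukocyte markers had in this list was not tested.

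Of 37 proteasome genes 34 had a negative log2 fold change and 5 were called lower, none higher, at a median of -0.48. The called share, 13.5%, was near the 12.4% of all genes. PSME1, an interferon-induced activator subunit, was at 381, 616 and 378 CPM in S6 and 172, 248 and 237 CPM in S9 (log2 fold change -1.07, SE 0.23). PSMA1, PSMA2, PSMA6 and PSMB10 were the others. Of 27 cholesterol genes 26 had a negative log2 fold change, and CH25H and HSD17B7 were the calls, a share of 7.41%, at a median of -0.45. CH25H, which makes 25-hydroxycholesterol in activated cells, was at 46.5, 55.5 and 21.4 CPM in S6 and 19.03, 12.2 and 10.8 CPM in S9, and limma-voom did not call it. Macrophage and T and B cell markers were lower beside these lists, and their part was not tested.

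CD74 and other antigen presentation genes were among the lower calls with the largest differences in mean CPM. CD74, the MHC class II invariant chain, was at 831, 4963 and 1955 CPM in S6 and 334, 542 and 789 CPM in S9, and S6_3 was far above the other S6 libraries. RLA-DR-ALPHA and RLA-DRB1, rabbit MHC class II genes, were called with it. B2M, the MHC class I light chain, was at 2287, 3053 and 2647 CPM in S6 and 897, 1427 and 1510.2 CPM in S9 (log2 fold change -1.06, SE 0.27). ANXA1, an annexin that limits inflammation, was at 3508, 2539 and 2412 CPM in S6 and 1118, 1201 and 1645 CPM in S9 (log2 fold change -1.09, SE 0.28). The groups of B2M and ANXA1 did not overlap, which the rule for naming them required. The peroxidase GPX1 was called lower as well. Macrophage and T and B cell markers were lower in S9, and their part in these genes was not tested.

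Mesenchymal and patterning transcription factors were higher in S9 where called. Of 54 tested factors 17 were called higher (31.5%, against 12.4% of all genes called) and none lower, and the median was 0.65. TCF21, a factor of visceral connective tissue, was at 4.31, 3.91 and 7.43 CPM in S6 and 66.6, 67.5 and 17.7 CPM in S9 (log2 fold change 3.28, SE 0.58, edgeR adjusted p = 0.0196). S9_4 was well below the other S9 libraries but above all of S6. HIC1, which marks quiescent mesenchymal cells, was at 34.3, 27.9 and 31.9 CPM in S6 and 90.2, 86.2 and 65.4 CPM in S9 (log2 fold change 1.36, SE 0.18, edgeR adjusted p = 0.0132). ZEB1, a repressor of epithelial genes, was at 31.01, 32.9 and 27.1 CPM in S6 and 79.4, 74.99 and 56.2 CPM in S9 (log2 fold change 1.21, SE 0.19). ISL1, a LIM factor of the embryonic genital and bladder region, was at 23.4, 16.3 and 15.3 CPM in S6 and 41.6, 38.2 and 40.6 CPM in S9 (log2 fold change 1.13, SE 0.20). In these 3 factors the groups did not overlap, as in nearly all called genes.

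FOXF1 and GLI2 act in hedgehog signalling of visceral mesenchyme. FOXF1 was at 21.6, 29.5 and 21.3 CPM in S6 and 90.8, 77.4 and 56.9 CPM in S9 (log2 fold change 1.64, SE 0.30). GLI2, a transcriptional effector of the pathway, was at 6.07, 6.51 and 7.64 CPM in S6 and 20.5, 18.1 and 13.2 CPM in S9. TBX4, a limb and lung patterning factor, was at 20.6, 20.4 and 22.8 CPM in S6 and 36.9, 35.1 and 41.8 CPM in S9, and its S7 libraries, at 57.7, 38.5 and 32.5 CPM, overlapped S9. The other calls were FOXF2, FOXL2, TBX2, TBX5, OSR1, OSR2, NR2F1, NR2F2, MSX1 and TWIST1. Fibroblast marker sums, mostly COL1A1, COL1A2 and COL3A1, overlapped between S6 and S9, as given above. Still, 10 of the 11 fibroblast markers had a positive log2 fold change, and TCF21 is itself 1 of the 2 called. Smooth muscle markers were also higher in S9, and the part of either cell type in these factors was not tested.

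Secreted modulators of WNT and BMP signalling had 9 of 50 tested members called higher (18%, against 12.4% of all genes called), none lower, and a median of 0.82. FSTL3, which binds activin and myostatin, was at 10.3, 6.21 and 8.44 CPM in S6 and 29.4, 35.1 and 41.1 CPM in S9 (log2 fold change 2.08, SE 0.30, edgeR adjusted p = 0.0146). APCDD1, a membrane inhibitor of WNT, was at 98.1, 99.3 and 96.3 CPM in S6 and 174, 197 and 228 CPM in S9 (log2 fold change 1.03, SE 0.15). APCDD1 varied little in S6, and FSTL3 was highest in S9_4. TWSG1, a BMP-binding protein, was at 41.4, 41.2 and 46.8 CPM in S6 and 79.8, 75.9 and 68.8 CPM in S9 (log2 fold change 0.80, SE 0.13). The BMP antagonist GREM1 was at 37.2, 36.4 and 20.1 CPM in S6 and 158, 148 and 83.2 CPM in S9. The ligands WNT4, WNT6 and WNT9A and the secreted glycoprotein FSTL1 were also called, with FSTL1 at 810.4, 1036 and 569 CPM in S6 and 1542, 1899 and 1171 CPM in S9.

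The dystrophin complex and caveolae had 15 of 30 tested members called higher, none lower, a share of 50.0% against 12.4% of all genes, and a median of 1.11. Like the oxidase list, it was chosen with earlier results of these data known, so the share is descriptive only. Dystrophin and the sarcoglycans tie the actin skeleton to the matrix, and caveolins and cavins shape membrane pits of muscle, endothelium and fat cells. All but 1 of the tested members had a positive log2 fold change. Sarcospan (SSPN) was at 22.8, 19.7 and 15.3 CPM in S6 and 59.8, 49.9 and 40.6 CPM in S9 (log2 fold change 1.38, SE 0.19, edgeR adjusted p = 0.0132). Delta-sarcoglycan (SGCD) was at 10.2, 7.02 and 5.44 CPM in S6 and 37.5, 32.9 and 26.3 CPM in S9 (log2 fold change 2.09, SE 0.36). Dystrophin (DMD) was at 34.2, 22.04 and 25.5 CPM in S6 and 94.6, 104 and 60.2 CPM in S9. In all 3 genes the groups were apart, as in nearly all called genes, and S9_4 was the lowest S9 library. Cavin-1 (CAVIN1) was at 553, 472 and 452 CPM in S6 and 1193, 1112 and 835 CPM in S9 (log2 fold change 1.09, SE 0.19). EHD2, which stabilises caveolae, was at 104, 149.8 and 103 CPM in S6 and 313, 308 and 219 CPM in S9 (log2 fold change 1.24, SE 0.22). For both the S7 libraries, 1141, 977 and 908 and 285, 265 and 211 CPM, overlapped S9. Smooth muscle markers were higher in S9 beside this list and the lists of cyclic nucleotides, peptide receptors and channels, with the sums given above. All 11 endothelial markers had a positive log2 fold change, 3 of them called. The part of either cell type was not tested.

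Cyclic nucleotide enzymes had 13 of 42 tested members called higher and 1 lower (33.3% called, against 12.4% of all genes), with a median of 0.72. Nitric oxide and natriuretic peptides raise cyclic GMP through guanylyl cyclases, the kinase PRKG1 acts on calcium release through IRAG1, and phosphodiesterases end the signal. The soluble guanylyl cyclase subunit GUCY1B1 was at 43.96, 41.1 and 33.5 CPM in S6 and 104, 119 and 74.5 CPM in S9 (log2 fold change 1.33, SE 0.26). Its partner GUCY1A1 was at 57.1, 47.5 and 40.3 CPM in S6 and 184, 227 and 97.01 CPM in S9. PRKG1 was at 15.5, 14.4 and 8.66 CPM in S6 and 39.1, 34.9 and 25.7 CPM in S9, and IRAG1 was called with it. The phosphodiesterases PDE3A and PDE5A were higher too. PDE3A was at 17.9, 8.36 and 10.2 CPM in S6 and 54.7, 47.8 and 34.9 CPM in S9 (log2 fold change 1.92, SE 0.37). PDE5A, the target of sildenafil, was at 103, 49.05 and 44.7 CPM in S6 and 297, 329 and 207 CPM in S9 (log2 fold change 2.08, SE 0.47). Adenylyl cyclase ADCY3 was at 22.8, 16.6 and 12.9 CPM in S6 and 47.5, 45.3 and 39.7 CPM in S9 (log2 fold change 1.34, SE 0.23, edgeR adjusted p = 0.019). PDE4B, a cyclic AMP phosphodiesterase abundant in leukocytes, was the lower call, at 28.1, 50.2 and 31.3 CPM in S6 and 12.3, 16.4 and 15.9 CPM in S9 (log2 fold change -1.30, SE 0.24).

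Neuropeptides, granins and peptide receptors had 9 of 35 tested members called higher (25.7%, against 12.4% of all genes called), none lower, and a median of 1.14. VIPR2, a receptor for vasoactive intestinal peptide, was at 8.56, 4.15 and 12.3 CPM in S6 and 75.6, 106 and 52.7 CPM in S9 (log2 fold change 3.23, SE 0.51, edgeR adjusted p = 0.0166). The VIP gene itself had 0 counts in every library. NPR2, a natriuretic peptide receptor that makes cyclic GMP, was at 29.1, 25.5 and 21.9 CPM in S6 and 71.7, 67.3 and 53.7 CPM in S9 (log2 fold change 1.33, SE 0.20), and NPR1 was called with it. The bradykinin receptor BDKRB2 was at 8.56, 10.6 and 9.30 CPM in S6 and 20.7, 28.2 and 16.4 CPM in S9. Proenkephalin (PENK), an opioid peptide precursor, was at 9.72, 8.05 and 5.47 CPM in S6 and 22.4, 63.1 and 20.8 CPM in S9. PENK was highest in S9_2. The groups of BDKRB2 and PENK did not overlap, as in nearly all called genes. Chromogranin A (CHGA), a protein of neuroendocrine granules, was at 3.44, 0.242 and 0.402 CPM in S6 and 11.01, 19.6 and 25.3 CPM in S9 (log2 fold change 3.77, SE 1.02). CHGA was highest in S9_4, where most genes called higher were lowest among S9. CHGB, SCG5 and the PACAP receptor ADCYAP1R1 were the other calls.

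**Figure D4:**
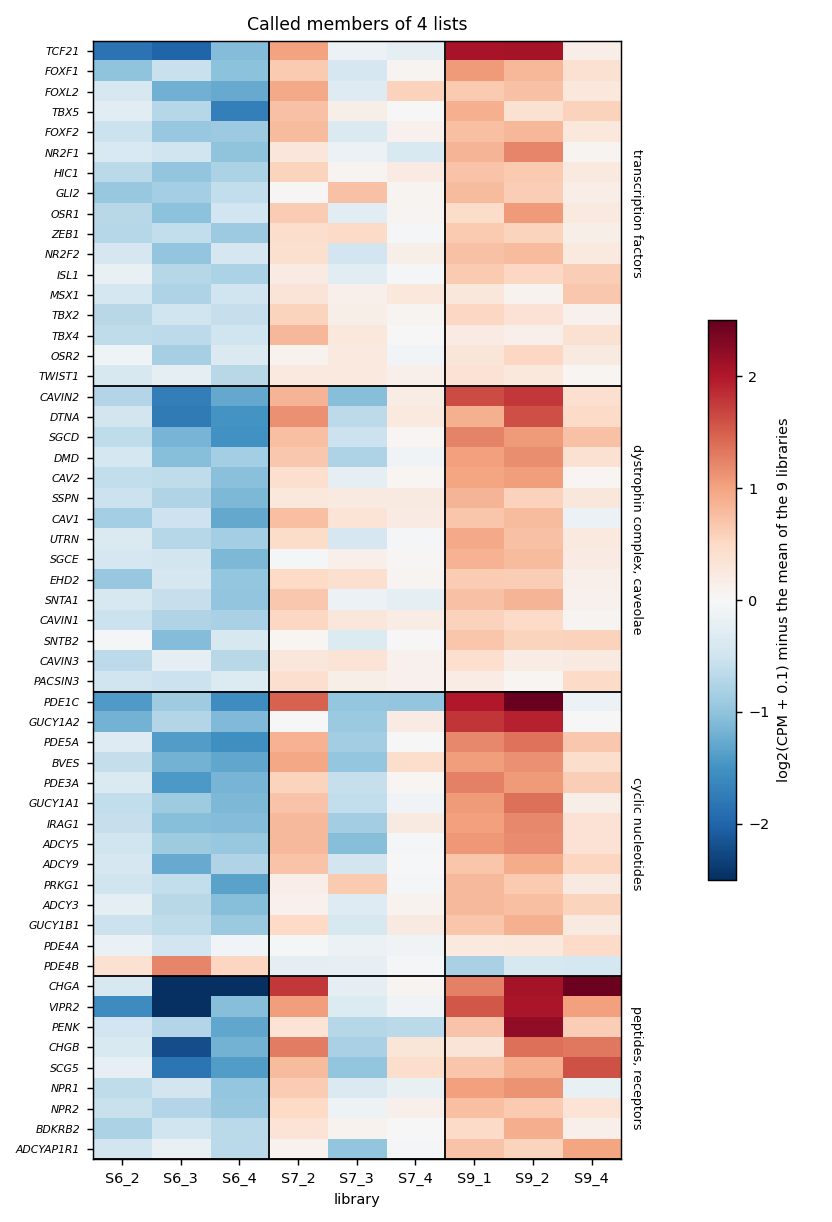
Log2(CPM + 0.1) minus the mean of the 9 libraries (colour, red above and blue below the mean) in each library (columns) for the called members of 4 lists (rows). S6 is mostly below the mean and S9 mostly above it except in PDE4B, S9_4 is paler than S9_1 and S9_2 in most rows, and CHGA and SCG5 are darkest in S9_4.

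Of 42 tested potassium channel genes 5 were called higher and 3 lower (19.0% called, against 12.4% of all genes, median 0.77). Of 24 voltage-gated calcium and sodium channels 2 were called higher and none lower (8.33% called, median 1.06). KCNMA1, the large-conductance calcium-activated channel, was at 46.97, 25.4 and 24.7 CPM in S6 and 158, 178 and 99.2 CPM in S9 (log2 fold change 2.17, SE 0.48). KCND3 and KCNN3 were also called higher. KCNE3, a beta subunit of epithelial channels, was lower, at 42.1, 50.3 and 119 CPM in S6 and 12.97, 9.37 and 23.7 CPM in S9 (log2 fold change -2.20, SE 0.52), as were KCNJ2 and KCNA3, a channel of lymphocytes. CACNA1C, the pore of the L-type calcium channel, was at 13.7, 12.7 and 11.96 CPM in S6 and 44.5, 38.2 and 26.8 CPM in S9 (log2 fold change 1.51, SE 0.31). The T-type channel CACNA1H was the other calcium call.

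Receptors for amines, acetylcholine and purines had 3 calls among 36 tested (8.33%, against 12.4% of all genes called). Their median of 0.08 was negative only in the 6 libraries with high mitochondrial counts. ADORA2B, an adenosine receptor induced by hypoxia, was lower, at 29.9, 21.6 and 38.9 CPM in S6 and 9.98, 7.97 and 8.34 CPM in S9 (log2 fold change -1.78, SE 0.28, edgeR adjusted p = 0.0164). The muscarinic receptor CHRM3, which drives bladder contraction, was higher, at 0.163, 0.0606 and 0.0268 CPM in S6 and 4.79, 7.07 and 0.609 CPM in S9. CHRM3 had 9 counts over the S6 libraries, and limma-voom did not call it. The adrenergic receptor ADRA2B was at 3.93, 1.48 and 0.777 CPM in S6 and 12.8, 15.4 and 5.98 CPM in S9.

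Guidance and neuronal adhesion genes were called higher only. Of 58 axon guidance genes 10 were called (17.2%, against 12.4% of all genes, median 0.57). Of 46 synaptic and neuronal adhesion genes 9 were called (19.6%, median 1.28). NTN1, a secreted guidance and angiogenic cue, was at 43.6, 44.1 and 42.2 CPM in S6 and 137, 131 and 110.2 CPM in S9 (log2 fold change 1.54, SE 0.29, edgeR adjusted p = 0.0211). SEMA3C was at 26.4, 27.3 and 20.1 CPM in S6 and 65.7, 53.5 and 49.1 CPM in S9. Both groups were tight in NTN1. The ephrin receptor EPHA4 was at 55.4, 33.3 and 32.3 CPM in S6 and 100.3, 91.3 and 78.1 CPM in S9. The SLIT receptor ROBO2 was at 14.1, 8.93 and 12.6 CPM in S6 and 33.7, 28.2 and 23.2 CPM in S9. SEMA3D, SEMA3E, SEMA5A, SEMA6C, PLXNA4 and EPHB4 were the other guidance calls.

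Among adhesion genes FLRT1, a leucine-rich repeat protein, was at 4.66, 2.604 and 2.63 CPM in S6 and 22.6, 26.4 and 18.9 CPM in S9 (log2 fold change 2.78, SE 0.40, edgeR adjusted p = 0.0146). The neuroligin NLGN2, a synaptic adhesion partner of neurexins, was at 39.6, 43.3 and 36.4 CPM in S6 and 81.6, 86.8 and 63.1 CPM in S9. NLGN3 was at 4.58, 2.06 and 2.84 CPM in S6 and 14.1, 10.7 and 10.7 CPM in S9. FLRT2, CNTN1, CDH6, CADM4, PCDH7 and PCDH18 were the others called. Schwann and neural markers were higher in sum beside these lists, and their part was not tested. NRXN3 had 0 counts in S6 and was not called, and setting it to a bound of 3 counts over the group left the list median at 1.28.

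Steroid hormone, clock and detoxification genes were called in both directions. Of 32 steroid receptors and targets 3 were called higher and 2 lower (15.6% called, against 12.4% of all genes, median 0.21). The glucocorticoid receptor NR3C1 was at 70.2, 49.5 and 51.5 CPM in S6 and 147, 91.6 and 95.2 CPM in S9 (log2 fold change 0.96, SE 0.22). The thyroid hormone receptor THRA was also called higher, at 102, 49.6 and 63.3 CPM in S6 and 168, 150.3 and 147 CPM in S9. HSD17B11, a steroid dehydrogenase, was lower, at 8.02, 9.57 and 12.4 CPM in S6 and 3.44, 3.78 and 4.18 CPM in S9, and HSD17B2 was called lower too.

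Of 20 clock genes 4 were called higher and 2 lower (30% called, against 12.4% of all genes, median 0.23). CLOCK, a core activator of the cycle, was at 60.2, 41.6 and 59.3 CPM in S6 and 87.2, 94.95 and 91.5 CPM in S9. DBP, an output factor, was at 30.6, 10.9 and 18.7 CPM in S6 and 50.2, 52.4 and 56.3 CPM in S9 (log2 fold change 1.40, SE 0.33), and TEF and CRY2 were called with it. NFIL3, which represses sites that DBP activates, was lower, at 36.7, 44.8 and 58.9 CPM in S6 and 20.5, 18.2 and 17.2 CPM in S9 (log2 fold change -1.33, SE 0.20). BHLHE40, a repressor of the core loop, was at 204, 117 and 106 CPM in S6 and 53.7, 43.8 and 72.6 CPM in S9. The time of day of sampling was not stated.

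Of 25 xenobiotic and methyl transfer enzymes 3 were called higher and 1 lower (16% called, against 12.4% of all genes, median 0.35). INMT, which methylates indole amines, was at 36.7, 3.69 and 7.77 CPM in S6 and 398, 437 and 74.7 CPM in S9 (log2 fold change 4.24, SE 1.06), with 1 library far from the others in each group. The aldehyde dehydrogenase ALDH3A2 and the amine oxidase MAOB were the other higher calls, with MAOB at 39.4, 35.03 and 32.9 CPM in S6 and 98.9, 97.6 and 55.6 CPM in S9. The glutathione transferase GSTO1 was lower, at 55.3, 71.2 and 82.9 CPM in S6 and 35.3, 35.2 and 47.5 CPM in S9. Among 20 retinoid genes STRA6, a retinol importer, was the single call (5%, against 12.4% of all genes called). STRA6 was at 27.5, 27.4 and 34.1 CPM in S6 and 12.3, 13.1 and 16.8 CPM in S9 (log2 fold change -1.08, SE 0.20). The list median of -0.07 was positive under length correction and on both FPKM scales.

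Of 27 tissue-restricted splicing and translation regulators 4 were called higher and none lower (14.8% called, against 12.4% of all genes, median 0.49). RBFOX2, a splicing factor of muscle and nerve, was at 113, 109 and 111 CPM in S6 and 201, 219 and 152 CPM in S9. RBM20, a regulator of titin splicing, was at 1.60, 1.39 and 1.53 CPM in S6 and 7.09, 8.19 and 3.55 CPM in S9 (log2 fold change 2.06, SE 0.52). CPEB1 and PTBP2 were the others.

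**Figure D5:**
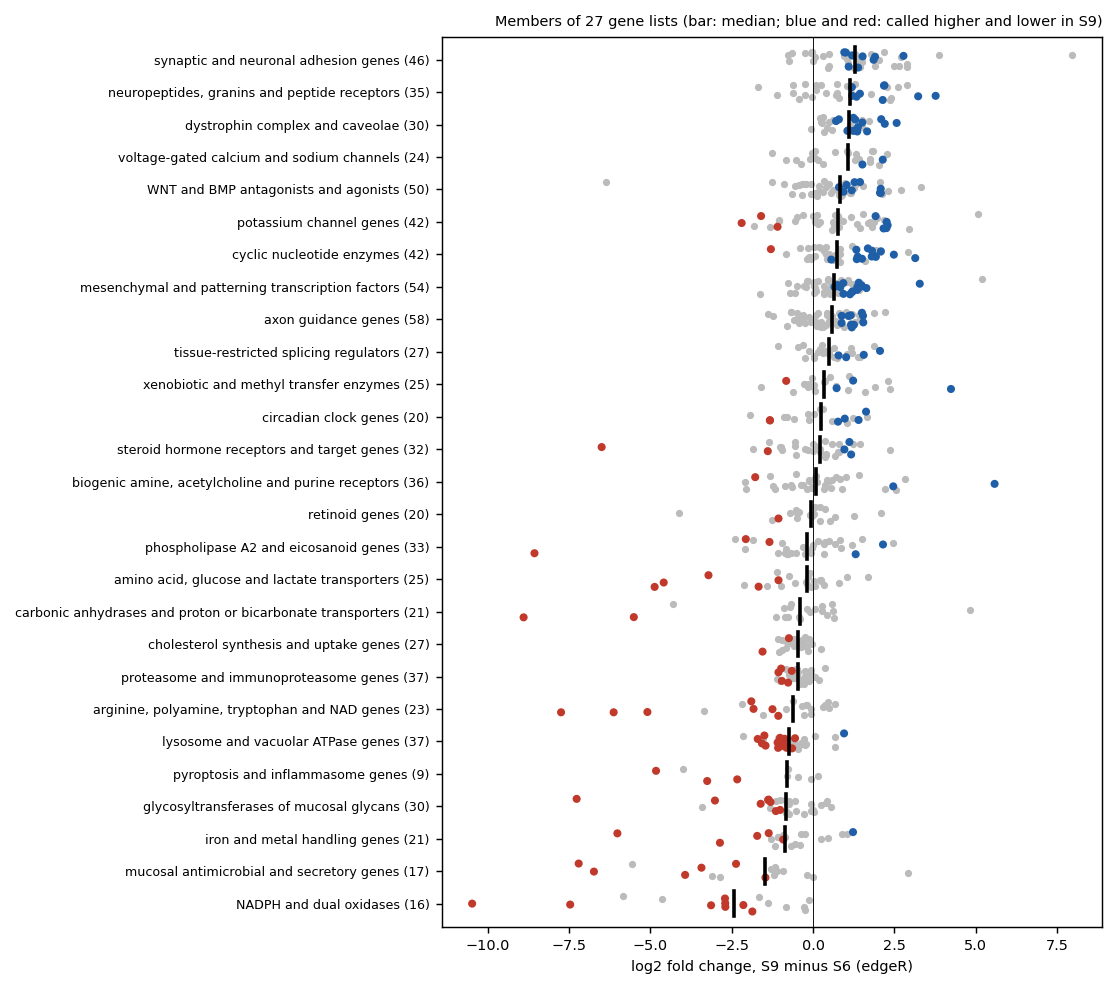
Log2 fold change (S9 minus S6, horizontal axis) of each tested member of 27 gene lists (rows, number tested in brackets), with the list median as a bar and called members in blue (higher) or red (lower). Medians run from -2.42 for the oxidases to 1.28 for neuronal adhesion genes.

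In several lists the share of members called was near or below the 12.4% of all genes, so that the count says nothing about the list. It was 5% for retinoid genes, 8.33% for calcium and sodium channels and also for amine, acetylcholine and purine receptors, 9.52% for carbonic anhydrases and acid-base transporters, and 14.8% for splicing regulators. Higher shares were 15.2% for eicosanoid genes, 15.6% for steroid genes, 16% for xenobiotic and methyl transfer enzymes and 17.2% for axon guidance genes. Potassium channels were at 19.0%, neuronal adhesion genes at 19.6%, nutrient transporters at 20% and clock genes at 30%. All lists were chosen with earlier results of these data known, so a share above 12.4% is description and not support.

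The largest fold changes among genes outside the pathway lists were uneven across libraries. SCGB3A1, a small secreted protein of mucosa, was at 1.49, 0.394 and 1.18 CPM in S6 and 99.03, 53.6 and 24.1 CPM in S9 (log2 fold change 5.84, SE 0.75). MYOC, a secreted glycoprotein known from the eye, was at 4.66, 2.42 and 1.13 CPM in S6 and 63.8, 83.996 and 13.5 CPM in S9. HMCN2, a hemicentin of the matrix, was at 10.4, 10.5 and 9.06 CPM in S6 and 138, 99.004 and 42.9 CPM in S9 (log2 fold change 3.22, SE 0.73). S9_4 was the lowest S9 library in each of them, as it was in NELL2, ALKAL2, RASSF10, RYR3, DGKG, RIMS1, PDE1C and IGSF9B, the other genes outside the described list members with the largest positive fold changes. Among the lower calls the S6 levels often came from 1 library. SERPINA5, a protease inhibitor, was at 5.66, 4.42 and 94.1 CPM in S6, and S6_4 held most of it. CCL17, a chemokine, was at 0.433, 43.7 and 1.045 CPM in S6, MMP12, macrophage elastase, at 2.95, 225 and 33.7 CPM, and DCSTAMP, a fusion protein of giant cells, at 0.108, 24.3 and 0.965 CPM, all highest in S6_3. The phosphate hormone FGF23 was also highest there. DESeq2 gave no adjusted p for SERPINA5, CCL17 or FGF23, and limma-voom did not call SERPINA5, CCL17, MMP12, DCSTAMP, TFF1, PSCA or RIMS1.

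The higher calls with the largest differences in mean CPM were mostly scaffold, matrix and cytoskeletal genes. AHNAK, a large scaffold protein, was at 1930.3, 1027 and 1141 CPM in S6 and 3243, 2687 and 3634 CPM in S9 (log2 fold change 1.22, SE 0.29). LTBP4, which stores latent TGF-beta in elastic matrix, was at 367, 226 and 205 CPM in S6 and 1721, 1699 and 980.2 CPM in S9 (log2 fold change 2.46, SE 0.50, edgeR adjusted p = 0.0244). The laminin chain LAMC1 was at 509.7, 467 and 387 CPM in S6 and 1056, 1234 and 770.4 CPM in S9. In all 3 the groups were apart, which the rule for naming them required. The actin-binding proteins FLNA and TPM1 and the LIM protein FHL1, all abundant in muscle, were called higher too, with FLNA at 328, 464 and 304 CPM in S6 and 1590.2, 1795 and 849 CPM in S9. KRT15, a keratin of basal stratified epithelium, was at 556, 322 and 422 CPM in S6 and 1302, 1212 and 1367 CPM in S9 (log2 fold change 1.58, SE 0.28, edgeR adjusted p = 0.0196). KRT15 was close within S9, and no other of the stratified epithelial markers was called.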

How the data were processed

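Polyadenylated RNA of rabbit urethral tissue was sequenced in 9 libraries. Per the submitters' processing notes, reads were handled with fastp, HISAT2 and HTSeq, with genome build and strand setting not given in the sources used here. Deposited values are whole-number counts per gene, not normalized, and the authors also deposited FPKM values, used here only in alternatives on log2(FPKM + 1) and log2(FPKM + 0.1). Groups were taken from the code in each title. Counts of 17102 genes that passed edgeR's filter (minimum count 10, total 15) of 28788 rows were TMM-scaled and fitted over all 9 libraries with edgeR 4.0.16's robust quasi-likelihood test (R 4.3.3), with Benjamini-Hochberg adjustment over all genes tested and a threshold of 0.05. CPM are counts scaled by TMM library sizes. DESeq2 1.42.0 and limma 3.58.1 served as alternatives, and the fit was tested on simulated data. Where the table gave a locus number, 515 rows took a symbol from RefSeq (mOryCun1.1).

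Genes were named by these rules, leaving out leukocyte and smooth muscle markers: the 15 largest fold changes in each direction among calls whose higher group averaged 5 CPM or more, the 8 calls in each direction with the largest difference of mean CPM (both from genes whose groups did not overlap), genes with an adjusted p below 0.01, and up to 4 called members of each list. Other list members given with values were chosen after their values were seen. The comparison and lists were chosen with earlier results of these data known. Count intervals and the bound of 3 counts cover counting error only. Values of some genes of the lists are not reported here.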

Additional observations from a re-analysis of the deposited data

How the results depend on the processing

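Against 2115 genes called by edgeR's quasi-likelihood test, DESeq2's Wald test called 4112, limma-voom called 4064, and edgeR called 7 in the 6 libraries with high mitochondrial counts. Leaving out each library in turn gave 0 to 2076 calls. Each of 144 named genes kept its direction in every one of the 22 alternatives that tested it (CCL17, DCSTAMP and KMO were tested in 20, and CHRM3, FGF23 and SERPINA5 in 21). DESeq2 called 141 of the named genes and gave no adjusted p for CCL17, FGF23 and SERPINA5, and limma-voom called 131. All 144 were called in the main fit, and many were picked for groups that did not overlap. A change of direction was therefore unlikely from the start, and its absence is no measure of reliability. The medians of 24 of 27 lists kept their sign in all alternatives. Those of biogenic amine, acetylcholine and purine receptors (-0.06 to 0.22, negative in the libraries with high mitochondrial counts), eicosanoid genes (-0.25 to 0.01, positive under length correction) and retinoid genes (-0.14 to 0.08, positive under length correction and on both FPKM scales) did not.

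With the replicate number as a block edgeR called 16 genes. The shared numbers are not stated to pair libraries. Deviations of same-numbered S6 and S9 libraries correlated at -0.06 and 0.13, and those of same-numbered pairs with an S7 library at 0.02 to 0.14. Differently numbered pairs lay between -0.18 and 0.10. These values do not settle whether the numbers pair libraries.

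Depth was similar in all libraries, and counts of genes at or near 0 in a group limit the precision of their ratios.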
